A study of Mus musculus with 10 samples.

Results

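The genes described here are the cytosolic translation initiation and elongation factors of the mouse, taken as every gene symbol of the deposited tables that begins with Eif1 to Eif6, Eef1 or Eef2. The eIF2 alpha kinases and the eEF2 kinase, whose symbols begin the same way, were left out. This gave 58 genes of 23924 usable symbols in each table. RNA was measured by sequencing in whole pieces of pancreatic tumour that had been transplanted into the pancreas of athymic nude mice, hosts that lack a thymus and so most T cells. The tumours were of 2 models, named KrasT and MycT in the labels. Doxycycline KrasT mice (n = 3) and doxycycline MycT mice (n = 2) drank doxycycline at 100 ug/ml in water with 2.5% sucrose for 14 days. Untreated KrasT mice (n = 3) and untreated MycT mice (n = 2) had 0 days of doxycycline, and no sucrose is named for them. The drug, the sucrose and the switching of a transgene came together, so their effects cannot be told apart. Doxycycline is the drug that controls tetracycline-regulated transgenes; how the transgenes of these tumours are built, which cells express them and the age of the mice are not in the labels. One untreated MycT library carries an animal number that matches no sample title, and it is called the unnumbered untreated library.

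Translation starts when the small ribosomal subunit, loaded with eIF1, eIF1A, eIF3, eIF5 and the eIF2 complex that brings the initiator methionyl-tRNA, is recruited to the capped mRNA by eIF4F, which is the cap-binding protein eIF4E, the scaffold eIF4G and the helicase eIF4A. Elongation is then driven by eEF1A, which delivers each aminoacyl-tRNA, and by eEF2, which moves the ribosome along the mRNA. MYC and the RAS pathway are both known to raise the protein-making capacity of tumour cells, and eIF4E is a textbook example of a factor that limits it.

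Several of these genes carry the hexamer CACGTG, the sequence to which dimers of MYC and MAX bind, close to their start. The promoters of the factors below are shown because they include the cap-binding protein, the main helicase, its scaffold, the hypusinated factor eIF5A and eEF2, and beside them Eef1e1, the member with the lowest log2 change after doxycycline in both models. Each is the 250 bases before an annotated start, from RefSeq on GRCm38.p6, written in the direction of the gene, with CACGTG in capitals. They are Eif4e at chr3:138527018-138527267 on the plus strand, Eif5a at chr11:69921387-69921636 on the minus strand, Eif4a1 at chr11:69672424-69672673 on the minus strand, Eef2 at chr10:81176381-81176630 on the plus strand, Eif4g1 at chr16:20672477-20672726 on the plus strand and Eef1e1 at chr13:38659029-38659278 on the minus strand.
Eif4e: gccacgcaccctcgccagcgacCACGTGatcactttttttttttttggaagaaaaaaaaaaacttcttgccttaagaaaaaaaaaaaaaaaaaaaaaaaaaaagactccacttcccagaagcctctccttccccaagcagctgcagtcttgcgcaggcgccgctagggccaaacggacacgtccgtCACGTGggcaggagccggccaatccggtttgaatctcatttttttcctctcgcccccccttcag
Eif5a: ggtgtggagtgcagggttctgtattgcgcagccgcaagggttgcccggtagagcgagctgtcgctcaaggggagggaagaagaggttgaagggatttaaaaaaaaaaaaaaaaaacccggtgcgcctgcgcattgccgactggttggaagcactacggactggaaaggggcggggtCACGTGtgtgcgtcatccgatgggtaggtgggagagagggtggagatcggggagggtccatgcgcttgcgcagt
Eif4a1: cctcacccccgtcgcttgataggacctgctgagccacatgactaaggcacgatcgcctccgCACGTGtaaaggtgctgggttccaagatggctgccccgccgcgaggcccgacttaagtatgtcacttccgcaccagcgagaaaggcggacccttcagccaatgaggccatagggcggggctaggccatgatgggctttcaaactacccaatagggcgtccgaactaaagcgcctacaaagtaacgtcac
Eef2: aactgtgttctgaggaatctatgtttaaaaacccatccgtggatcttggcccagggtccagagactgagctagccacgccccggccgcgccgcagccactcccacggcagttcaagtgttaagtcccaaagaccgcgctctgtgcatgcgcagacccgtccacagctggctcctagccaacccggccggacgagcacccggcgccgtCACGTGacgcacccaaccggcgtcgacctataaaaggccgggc
Eif4g1: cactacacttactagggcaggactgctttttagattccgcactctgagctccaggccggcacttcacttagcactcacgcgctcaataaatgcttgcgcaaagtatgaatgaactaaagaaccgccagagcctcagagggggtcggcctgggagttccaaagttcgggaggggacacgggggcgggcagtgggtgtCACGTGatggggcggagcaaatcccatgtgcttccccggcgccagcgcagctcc
Eef1e1: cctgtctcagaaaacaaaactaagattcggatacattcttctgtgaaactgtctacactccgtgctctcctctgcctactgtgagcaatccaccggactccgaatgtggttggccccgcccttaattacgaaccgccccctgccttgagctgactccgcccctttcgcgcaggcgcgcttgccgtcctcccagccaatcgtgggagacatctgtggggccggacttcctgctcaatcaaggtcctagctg
In these windows CACGTG began 228 and 64 bases before the start of Eif4e, 74 before Eif5a, 189 before Eif4a1, 43 before Eef2 and 54 before Eif4g1, and Eef1e1 held none. For a gene with several starts, the first window that held CACGTG was printed. Window 1 of 2 of Eif4e and windows 1, 4 and 5 of 6 of Eif5a held none. The hexamer reads the same on both strands. RefSeq promoters were matched for 44 of the 58 factors, some with several starts, and 10 of the 44 (22.7%) held CACGTG in at least 1 window, beside 6.86% of all 27025 symbols. The other holders were Eif1b, Eif3f, Eif3k, Eif4h and Eif5a2. A match of letters is a description and does not show that a protein binds there.

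Expression was given as FPKM, fragment numbers corrected for the length of the gene and the size of the library, so that levels can be compared between genes. Whether this correction makes the libraries of a table comparable was not settled, as their totals show. The read depth of the libraries is unknown. The summed FPKM of a library was 513949 to 569272 in doxycycline KrasT tumours and 789672 to 1018970 in untreated ones, and 546008 to 557227 in doxycycline MycT tumours and 1126800 to 1517330 in untreated ones. The part of these unequal totals in the results below was not tested beyond the scaling alternatives given beside them. Markers of the cells that a tumour piece can hold also moved with the groups. Summed over 8 genes, ductal epithelial markers were 279 to 1805 FPKM in doxycycline KrasT tumours and 2354 to 18620 FPKM in untreated ones, with 2 of 8 called lower, while in MycT tumours they were 905.5 to 1962 and 483 to 1342. Fibroblast markers were 3879 to 9121 FPKM in doxycycline KrasT tumours and 327 to 717 FPKM in untreated ones, with 7 of 8 called higher, and 1633 to 2341 FPKM in doxycycline MycT tumours and 36.6 to 452 FPKM in untreated ones. The sum of 6 endothelial markers was 61.9 to 135.7 FPKM in doxycycline and 11.8 to 24.8 FPKM in untreated KrasT tumours, and 51.7 to 95.8 FPKM in doxycycline and 6.90 to 28.4 FPKM in untreated MycT tumours. In KrasT 3 of 7 islet, 2 of 6 macrophage, 2 of 4 neutrophil, 1 of 4 B cell and 1 of 6 adipocyte markers were called higher, and 0 of the acinar, T and NK and muscle ones by limma. Islet sums were 48.4 to 7281 FPKM in doxycycline KrasT tumours and 0.311 to 64.4 FPKM in untreated ones, adipocyte sums 129.7 to 2004 and 13.6 to 51.0 FPKM, and macrophage sums 117 to 694 and 43.9 to 109 FPKM. Neutrophil sums were 126 to 192 FPKM in doxycycline KrasT tumours and 12.1 to 65.1 FPKM in untreated ones, B cell sums 4.495 to 41.7 and 0.695 to 1.26 FPKM, and T and NK sums 5.38 to 6.96 and 0 to 1.83 FPKM. Acinar sums overlapped, with 14280 FPKM in doxycycline KrasT replicate 3, 136 and 314 FPKM in the other doxycycline libraries and 24.2 to 381 FPKM in untreated ones. In MycT the macrophage, B cell, T and NK and adipocyte sums were also higher in both doxycycline libraries than in both untreated ones, while the islet, neutrophil and acinar sums overlapped. The part of these cells in the factors' values was not tested. The ribosomal RNA precursor Rn45s stood at 17238 FPKM in doxycycline KrasT replicate 1 and 20880 FPKM in doxycycline MycT replicate 2, and at no more than 2231 FPKM elsewhere. In whole tissue, fewer cells of a type and less RNA per cell cannot be told apart.

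The comparison of doxycycline with untreated KrasT tumours asked how the translation factors stood after doxycycline. Most stood lower on average, and none was called higher with all libraries in the fit. Of the 56 factors that passed the filter on low values (FPKM of 1 or more in at least 3 of 6 libraries), 26 fell at an adjusted p under 0.05 by limma and 0 rose, 46.4% of those tested, while 8.25% of all 12696 genes tested were called lower and 8.46% higher. At an unadjusted p under 0.05, 37 factors were lower and 0 higher, against 18.7% of all genes lower. The log2 change, here always doxycycline minus untreated on the log2(FPKM + 1) scale, had a median of -0.90 over the 56 factors and -0.10 over all genes, and was below 0 for 49 factors, against 54.7% of all genes. The median log2 change of the factors corresponds to a ratio of 0.536 on FPKM + 1, doxycycline over untreated. In 38 factors (67.9%) every doxycycline tumour was below every untreated one, against 23% of all genes, and in 0 factors every doxycycline tumour was above, against 16.8%. The median factor had an FPKM of 35.9 to 47.7 in doxycycline libraries and 69.2 to 79.4 in untreated ones.

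The number of KrasT calls depended on which libraries were used and on the scale. Without untreated replicate 1, 38 factors (67.9%) were called lower and 2 higher (Eef1a2 and Eif4a2). In that fit 2188 of all 12422 genes (17.6%) were called lower and 1988 higher. Without doxycycline replicates 1, 2 and 3 the calls numbered 1, 1 and 0, and without untreated replicates 2 and 3 they numbered 0 and 0. Calls over all genes were also few in these fits, with 1.08%, 0.871%, 0.184%, 0.528% and 0.248% lower in the same order. The 18 called factors followed through the fits that left out 1 library kept their direction in all 6. When every library was divided by its own total FPKM, a scaling chosen after seeing the data, only Eef1e1 and Eif1ax stayed called among the 56. They were 3.57% of the factors, beside 1.83% of all genes called lower. The median factor was then at -0.21, while the median gene moved by 0.63 to 0.53. The factors thus stood 0.74 below it, against 0.80 on the deposited scale. Under quantile normalization this gap was smaller, with the median factor at -0.42 and the median gene at -0.09, a difference of -0.33. In that fit 3 factors (5.36%) were called lower, beside 3.87% of all genes. Median-ratio scaling left 14 factors called lower and 0 higher; it changed the split of all calls to 701 lower and 1150 higher, against 1047 lower and 1074 higher as deposited. A list of 19 genes that most cells use, among them Actb and Gapdh, moved with the factors: 9 of the 19 were called lower and their median log2 change was -1.23.

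**Figure D1:**
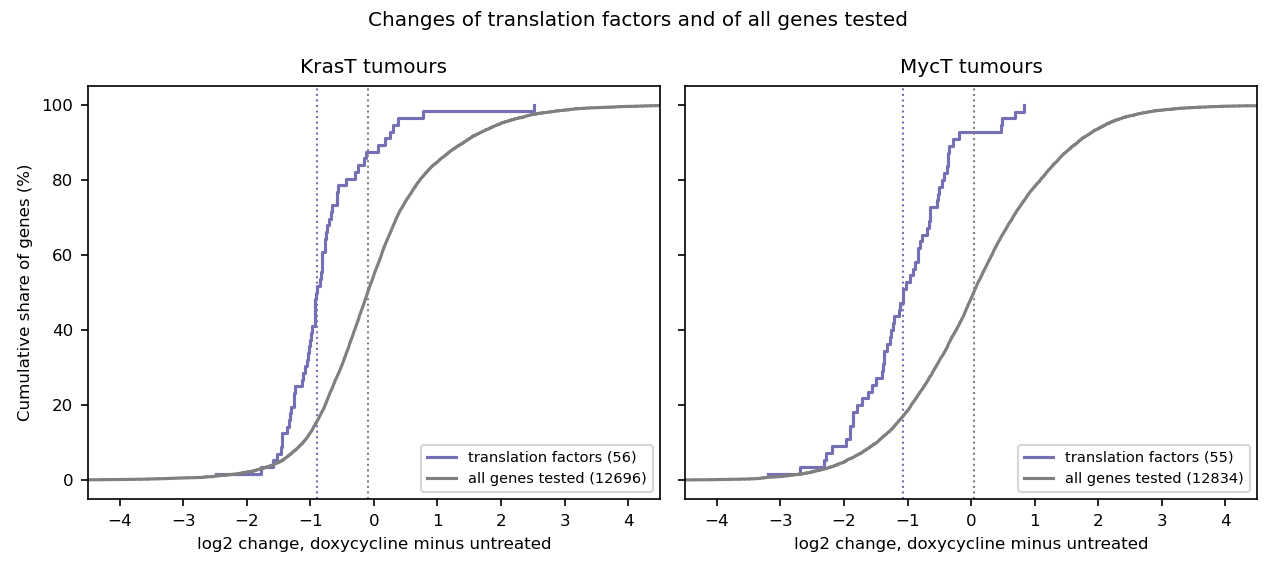
Cumulative share of genes (vertical axis, %) against log2 change of FPKM + 1, doxycycline minus untreated, in KrasT (left) and MycT tumours (right), for the translation factors that passed the filter and for all genes tested. Dotted lines mark the medians, which are -0.90 and -0.10 in KrasT and -1.07 and 0.04 in MycT, the factors' curve lying to the left of that of all genes over most of its length.

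The same comparison in MycT tumours has 2 libraries a group, and on its own the test called almost nothing: 0 of the 55 factors that passed (FPKM of 1 or more in at least 2 of 4 libraries), beside 0.0312% of 12834 genes called lower and 0.00779% called higher. The median of the factors was low on the deposited scale. Their median log2 change was -1.07, against 0.04 over all genes, and 51 of 55 were below 0, against 48.4% of all genes. The median log2 change of the factors corresponds to a ratio of 0.477 on FPKM + 1. At an unadjusted p under 0.05 29 factors were lower and 0 higher, against 17.6% of all genes lower, and the lowest adjusted p was 0.0638. In 43 factors (78.2%) both doxycycline tumours were below both untreated ones, against 32.8% of all genes, and in 4 both were above, against 31.9%.

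One fit over all 10 libraries, in which the groups share their spread, called 26 of 55 factors lower and 0 higher in MycT (47.3%, beside 12.3% of 12073 genes called lower and 8.11% higher). In KrasT it called 28 of 55 lower and 0 higher (50.9%, beside 9.09% lower and 7.94% higher). The 23 factors called lower in both were 82.1% of the KrasT and 88.5% of the MycT calls, where over all genes the shared calls were 41.5% and 30.7%. The factors called in KrasT alone were Eif1, Eif1a, Eif4ebp1, Eif4g2 and Eif6, and those called in MycT alone were Eif2a, Eif3g and Eif3k, but no factor passed the test of a difference between the models. The 19 genes that most cells use were low in MycT too, with a median log2 change of -0.94, and 6 of them were called lower and 1 higher in the fit over 10 libraries. Within the MycT table, the median log2 change of the factors was -1.20 without the unnumbered untreated library, against -1.07 with it. That fit has 1 untreated library, so its calls are not given. Division by total FPKM turned the direction of the MycT median, which became 0.14. Then 3 of 55 factors were called lower (Eef1b2, Eef1e1 and Eif2s1) and 4 higher (Eif4e3, Eif4ebp3, Eif4g3 and Eif5b). Of all 12834 genes, 227 (1.77%) were called lower and 3833 higher on this scale. The median of all genes then moved by 1.04 to 1.08, so the factors stood 0.94 below it, against 1.11 on the deposited scale. Under quantile normalization this gap was smaller, with the median factor at -0.54 and the median gene at -0.07, a difference of -0.48. Any statement below that a MycT level was lower is on the deposited scale.

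**Figure D2:**
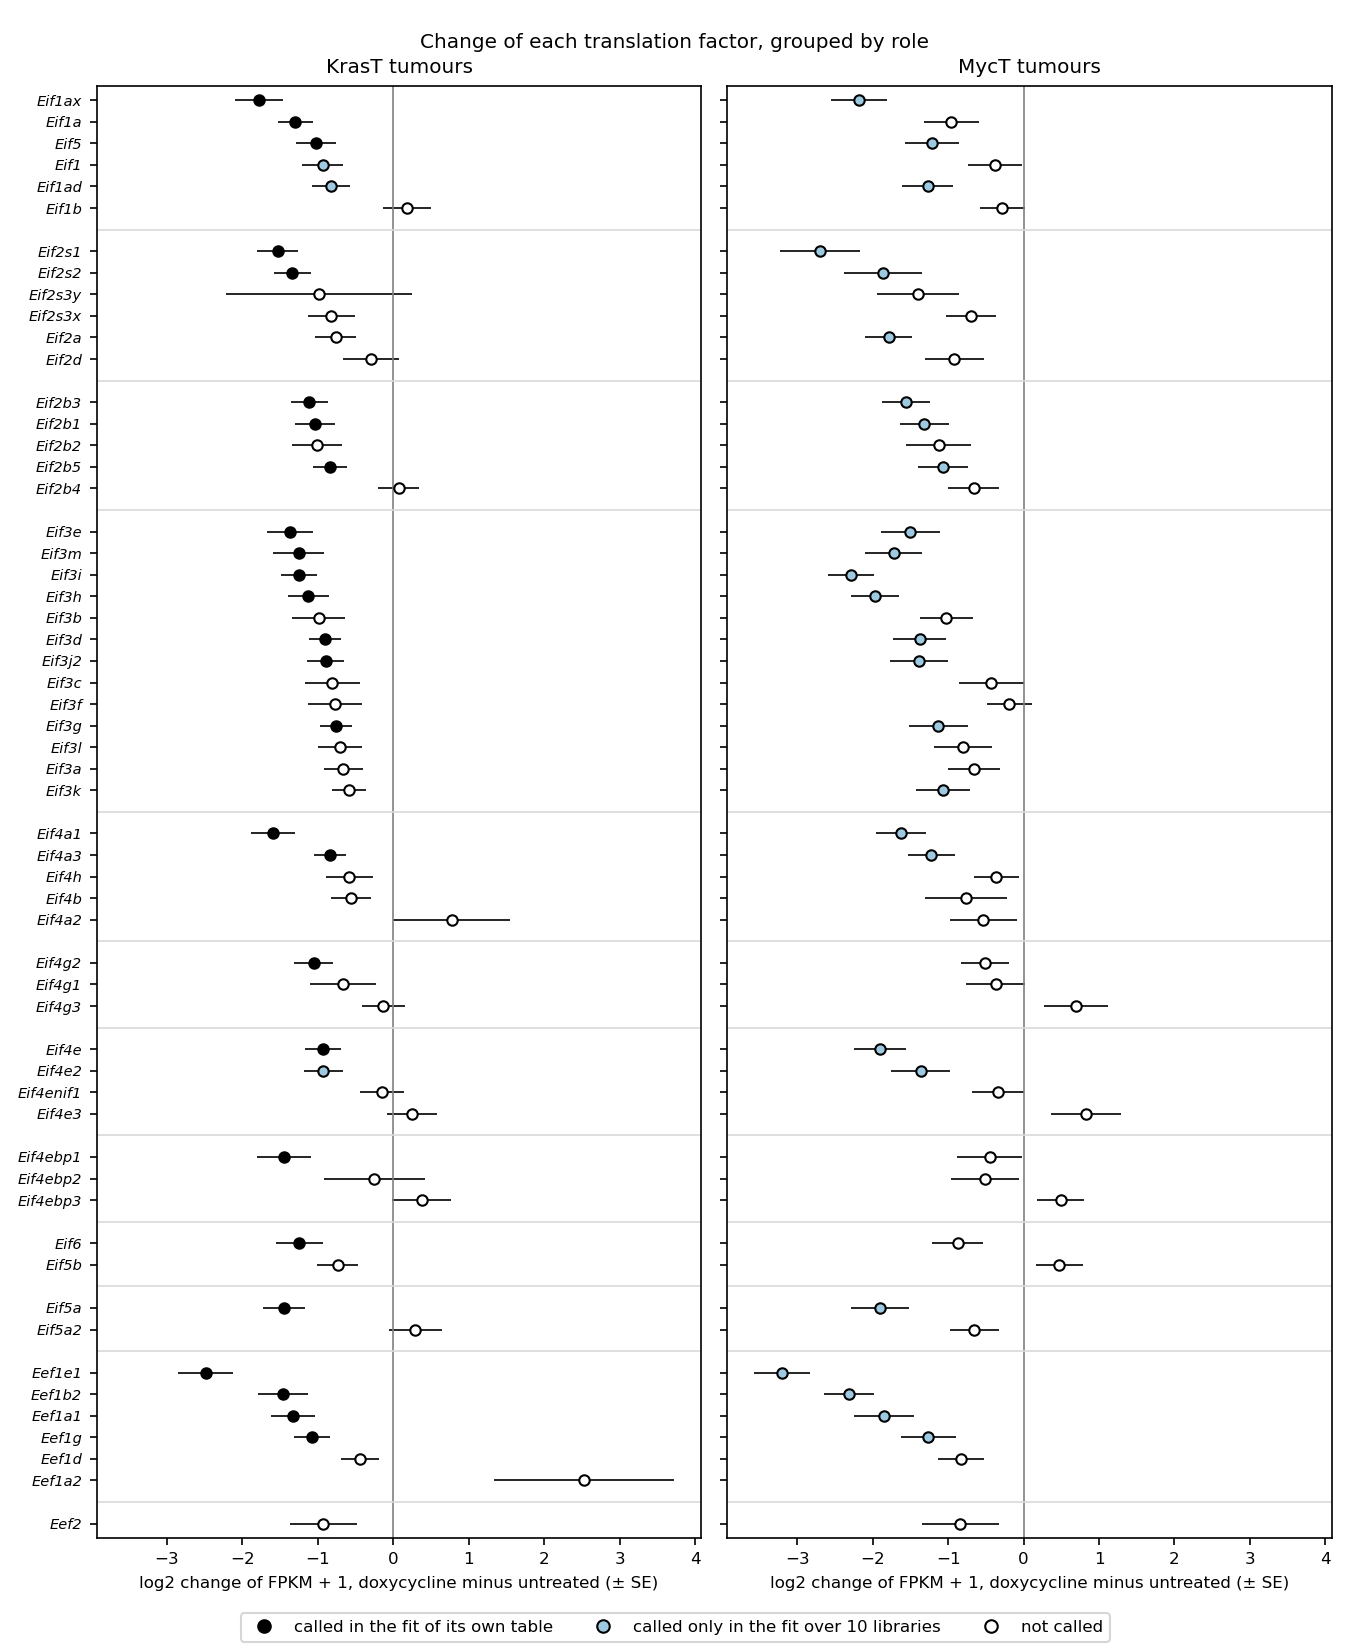
Log2 change of FPKM + 1, doxycycline minus untreated (horizontal axis, bars are standard errors of the limma fit within the table), of each translation factor in KrasT (left, n = 3 against 3) and MycT tumours (right, n = 2 against 2), in blocks by role. Filled black points were called in the table's own fit, blue points only in the fit over 10 libraries and open points in neither; Eef1e1 lies lowest in both panels at -2.48 and -3.20.

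The factors that select the start codon ride on the small subunit: eIF1 and eIF1A keep it scanning, and eIF5 triggers GTP hydrolysis by eIF2 once the codon is found. In KrasT 3 of these 6 genes fell, where 8.25% of all genes were called lower. In 5 of 6 the groups did not overlap, against 23% of all genes lower without overlap. Eif1ax, the X-linked gene of eIF1A, had 57.8, 73.3 and 59.3 FPKM in doxycycline KrasT tumours and 339, 168 and 186 FPKM in untreated ones. All 3 doxycycline libraries were below all 3 untreated ones, with a log2 change of -1.78 ± 0.32 (SE, adjusted p = 0.0181). In MycT Eif1ax stood at 85.8 and 62.5 FPKM after doxycycline and at 281 and 402 FPKM untreated, again without overlap, a log2 change of -2.18 ± 0.37 (adjusted p = 0.065, or 0.00855 in the fit over 10 libraries). Its autosomal copy Eif1a, named here after its values were seen, had 31.7, 31.7 and 23.5 FPKM in doxycycline KrasT tumours and 67.8, 70.9 and 78.2 FPKM in untreated ones (log2 change -1.30 ± 0.23, adjusted p = 0.0174). Eif5 also fell in KrasT, by 1.02 on the log2 scale (adjusted p = 0.0429). It averaged 52.6 ± 8.48 FPKM in doxycycline tumours and 109 ± 24.8 FPKM in untreated ones (SD, n = 3 each). Eif1 narrowly missed the threshold (395 ± 7.56 FPKM after doxycycline and 775 ± 205 FPKM untreated, adjusted p = 0.0586). Eif1b, a second eIF1 gene, had overlapping groups in KrasT, at 60.3, 58.0 and 68.4 FPKM after doxycycline and 86.1, 42.3 and 44.7 FPKM untreated.

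The eIF2 complex carries the initiator tRNA; its alpha subunit, product of Eif2s1, is the target of the stress kinases. In KrasT 2 of 6 genes of this block fell, where 8.25% of all genes were called lower. Eif2s1 had 16.0, 19.5 and 12.9 FPKM in doxycycline KrasT tumours and 61.5, 41.6 and 42.8 FPKM in untreated ones, groups well apart (log2 change -1.53 ± 0.27, adjusted p = 0.0178). In MycT it had 20.9 and 16.8 FPKM after doxycycline and 80.6 and 201 FPKM untreated, and the unnumbered untreated library alone held the highest value (log2 change -2.70 ± 0.53, adjusted p = 0.0689, or 0.00722 in the fit over 10 libraries). Eif2s2, the beta subunit, had 37.4, 50.8 and 35.4 FPKM in doxycycline KrasT tumours and 111, 90.2 and 114 FPKM in untreated ones, without overlap (log2 change -1.34 ± 0.24, adjusted p = 0.0185). In MycT Eif2s2 was at 45.3 and 34.0 FPKM after doxycycline and 94.0 and 224 FPKM untreated.

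The gamma subunit of eIF2 comes from a pair of genes, Eif2s3x on the X and Eif2s3y on the Y chromosome. Eif2s3x was not called, with 46.5, 42.8 and 24.7 FPKM in doxycycline KrasT tumours and 53.3, 75.8 and 69.5 FPKM in untreated ones (log2 change -0.82 ± 0.31, adjusted p = 0.116). Eif2s3y scattered far more: 4.98, 0 and 11.8 FPKM in doxycycline KrasT tumours and 37.8, 1.54 and 4.95 FPKM in untreated ones. Its groups overlapped, and its sign depended on 1 library, with a log2 change of 0.06 without doxycycline replicate 2 and 0.13 without untreated replicate 1, against -0.98 ± 1.23 with all. The library at 0 was also lowest in the Y-linked Ddx3y, Kdm5d and Uty (0.0399, 0.0084 and 0.0088 FPKM), and untreated replicate 1, the highest in Eif2s3y, had Xist at 0.0328 FPKM, against 10.1 to 72.9 FPKM in the other KrasT libraries. The labels give no sex for hosts or tumours, and the part of sex in these values was not tested.

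eIF2B recharges eIF2 with GTP, and its catalytic part is built from the epsilon and gamma subunits, encoded by Eif2b5 and Eif2b3. In KrasT 3 of its 5 genes fell and 4 had groups apart, where 8.25% of all genes were called lower and 23% were lower without overlap. Eif2b3 had 6.98, 6.75 and 6.58 FPKM in doxycycline tumours and 14.2, 19.7 and 14.1 FPKM in untreated ones (log2 change -1.11 ± 0.25, adjusted p = 0.0305). The other 2, Eif2b1 and Eif2b5, are named because they complete this count, and fell by 1.04 and 0.84 on the log2 scale (adjusted p = 0.042 and 0.0476). In MycT all 5 subunits were lower without overlap, against 32.8% of all genes. There Eif2b3 was at 8.001 and 8.997 FPKM after doxycycline and 28.9 and 25.03 FPKM untreated (log2 change -1.56 ± 0.32, adjusted p = 0.0696, or 0.00857 in the fit over 10 libraries).

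eIF3 is the largest initiation factor, a scaffold of many subunits between the small subunit and eIF4G. In KrasT 7 of 13 tested subunit genes fell and none rose, where 8.25% of all genes were called lower. In 11 the groups did not overlap, against 23% of all genes lower without overlap. In MycT all 13 were lower on average, and 12 of 13 were lower without overlap, against 32.8% of all genes. Eif3e had 93.0, 181 and 110.5 FPKM in doxycycline KrasT tumours and 349.9, 266 and 349 FPKM in untreated ones (log2 change -1.37 ± 0.31, adjusted p = 0.0313). Eif3h had 180.3, 312 and 232 FPKM after doxycycline and 562, 485 and 506 FPKM untreated (log2 change -1.13 ± 0.27, adjusted p = 0.0358), and in MycT 189 and 147 FPKM after doxycycline and 684 and 634 FPKM untreated (log2 change -1.97 ± 0.32, adjusted p = 0.0638, or 0.00694 in the fit over 10 libraries). Both subunits were below untreated in every doxycycline library of their tables. The other called subunits, Eif3d, Eif3g, Eif3i, Eif3j2 and Eif3m, chosen for naming after their values were seen, had log2 changes of -0.91, -0.76, -1.25, -0.89 and -1.26 in KrasT.

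The eIF3 core subunits Eif3a, Eif3b and Eif3c, which hold the complex together, were not called in KrasT. The MycT table's own fit called no factor at all. Eif3a had 45.7, 27.3 and 34.6 FPKM in doxycycline KrasT tumours and 56.9, 60.5 and 51.5 FPKM in untreated ones, apart but not called (log2 change -0.67 ± 0.26, adjusted p = 0.123). Eif3c had 64.7, 41.2 and 46.4 FPKM in doxycycline KrasT tumours and 56.0, 134 and 90.9 FPKM in untreated ones, an overlap made by untreated replicate 1. In MycT Eif3c overlapped too, with 36.9 and 48.4 FPKM after doxycycline and 78.0 and 42.0 FPKM untreated. Eif3b had log2 changes of -0.99 ± 0.35 in KrasT and -1.02 ± 0.35 in MycT (adjusted p = 0.0962 and 0.126), and its groups did not overlap in either table. The gene Eif3j1, a near copy of Eif3j2, did not pass the filter: it was at 0.06 to 0.14 FPKM in KrasT and at 0.119 and 0.171 FPKM in doxycycline MycT tumours, against 18.8 and 0.102 FPKM in untreated ones. Since 90.8% of the 50-base words of the Eif3j2 transcript also occur in Eif3j1, reads of this pair cannot be assigned with confidence.

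eIF4A unwinds the 5′ end of the mRNA, and eIF4B and eIF4H help it. Eif4a1, the main helicase gene, had 287, 178 and 172 FPKM in doxycycline KrasT tumours and 518, 739 and 636 FPKM in untreated ones. No doxycycline library reached the untreated range, and the log2 change was -1.59 ± 0.29 (adjusted p = 0.0194). In MycT it had 219 and 239 FPKM after doxycycline and 833 and 601 FPKM untreated (log2 change -1.62 ± 0.34, adjusted p = 0.0698, or 0.0148 in the fit over 10 libraries). Eif4a3, the helicase of the exon junction complex, fell in KrasT to 48.9 ± 1.05 FPKM in doxycycline tumours, against 88.6 ± 11.9 FPKM in untreated ones (SD, n = 3 each, log2 change -0.84 ± 0.21, adjusted p = 0.0417). Eif4a2, the second eIF4A gene, had 87.6, 225 and 187 FPKM in doxycycline KrasT tumours and 299, 35.7 and 67.7 FPKM in untreated ones. Untreated replicate 1 was the highest of the 6 and the other 2 untreated libraries the lowest, and the log2 change of 0.77 ± 0.78 was not called (adjusted p = 0.526), although without that library it was 1.63 (adjusted p = 0.0414). In MycT Eif4a2 had 144 and 74.2 FPKM after doxycycline and 131 and 172 FPKM untreated, an overlap. Eif4b had 85.4, 91.4 and 84.9 FPKM in doxycycline KrasT tumours and 93.7, 155 and 149 FPKM in untreated ones, and was not called (adjusted p = 0.183).

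The scaffold genes were not tested against each other. Eif4g2, which encodes a scaffold without the part that binds eIF4E, was the called one of 3 in KrasT, with 101, 81.2 and 69.9 FPKM in doxycycline tumours and 210.0, 142 and 177 FPKM in untreated ones (log2 change -1.06 ± 0.26, adjusted p = 0.0376). Eif4g1, the main scaffold of eIF4F, had 48.3, 32.0 and 25.05 FPKM in doxycycline KrasT tumours and 29.7, 83.0 and 65.3 FPKM in untreated ones, and its overlap came from untreated replicate 1 (log2 change -0.67 ± 0.44, adjusted p = 0.327). Eif4g3 differed little in KrasT, with 21.7, 14.1 and 12.9 FPKM after doxycycline and 15.5, 16.7 and 20.5 FPKM untreated. In MycT Eif4g3 was 1 of 4 factors above 0, with 11.1 and 13.7 FPKM after doxycycline and 9.96 and 5.22 FPKM untreated (log2 change 0.69 ± 0.42, adjusted p = 0.308).

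The cap-binding protein gene Eif4e had 23.0, 22.6 and 15.7 FPKM in doxycycline KrasT tumours and 40.7, 38.7 and 38.8 FPKM in untreated ones. The untreated libraries lay close together and all doxycycline libraries were below them, with a log2 change of -0.93 ± 0.24 (adjusted p = 0.043). In MycT Eif4e had 28.8 and 20.9 FPKM after doxycycline and 86.7 and 103 FPKM untreated (log2 change -1.90 ± 0.34, adjusted p = 0.0666, or 0.00654 in the fit over 10 libraries). Eif4e2, a cap-binding relative that represses translation, had 28.5, 28.4 and 23.3 FPKM in doxycycline KrasT tumours and 40.4, 52.7 and 65.0 FPKM in untreated ones, apart but at an adjusted p of 0.0517. Eif4e3, the most divergent relative, was not lower: it had 7.80, 8.12 and 6.48 FPKM in doxycycline KrasT tumours and 5.47, 4.21 and 9.66 FPKM in untreated ones, and in MycT 9.33 and 8.53 FPKM after doxycycline and 2.91 and 6.98 FPKM untreated, where both doxycycline libraries were higher (log2 change 0.83 ± 0.46, adjusted p = 0.275). Eif4e1b, the relative best known from oocytes, was listed at 0 in 9 libraries and at 0.103 FPKM in doxycycline MycT replicate 1.

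The eIF4E binding proteins hold eIF4E away from eIF4G until TOR kinase phosphorylates them. Eif4ebp1 fell in KrasT, with 69.5, 33.1 and 40.8 FPKM in doxycycline tumours and 104, 177 and 109.9 FPKM in untreated ones (log2 change -1.45 ± 0.36, adjusted p = 0.0383). In MycT its groups overlapped, at 41.6 and 76.6 FPKM after doxycycline and 66.5 and 90.5 FPKM untreated (log2 change -0.45 ± 0.43, adjusted p = 0.507). The difference between the models, -1.001 ± 0.59, did not pass (adjusted p = 0.374). Eif4ebp2 had 20.2, 12.6 and 13.2 FPKM in doxycycline KrasT tumours and 5.24, 31.7 and 32.8 FPKM in untreated ones, so that untreated replicate 1 was below and the other 2 above every doxycycline library. Eif4ebp3 had 8.04, 6.59 and 13.4 FPKM in doxycycline KrasT tumours and 10.8, 5.72 and 4.74 FPKM in untreated ones, and was not called.

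Subunit joining is the work of eIF5B, and eIF6 keeps the large subunit from joining too early. Eif6 fell in KrasT, with 61.3, 51.3 and 63.4 FPKM in doxycycline tumours and 92.9, 193 and 153 FPKM in untreated ones (log2 change -1.25 ± 0.31, adjusted p = 0.0399). In MycT Eif6 had 52.9 and 60.4 FPKM after doxycycline and 89.2 and 122 FPKM untreated (log2 change -0.88 ± 0.34, adjusted p = 0.15). Eif5b was the member whose groups stood apart in opposite order in the 2 models, with 12.7, 8.20 and 8.14 FPKM in doxycycline KrasT tumours and 14.7, 17.5 and 17.5 FPKM in untreated ones. In MycT it had 11.6 and 11.1 FPKM after doxycycline and 8.16 and 7.62 FPKM untreated. Such groups were found in 4.4% of the 12073 genes tested in both models. The log2 changes of Eif5b were -0.74 ± 0.27 and 0.47 ± 0.31, neither called (adjusted p = 0.105 and 0.347).

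eIF5A, which carries the modified amino acid hypusine, helps ribosomes through stretches they translate slowly. Eif5a had 300.1, 218 and 237 FPKM in doxycycline KrasT tumours and 559.9, 898 and 636 FPKM in untreated ones, without overlap (log2 change -1.45 ± 0.28, adjusted p = 0.0211). In MycT it had 283 and 419.6 FPKM after doxycycline and 1515 and 1109 FPKM untreated (log2 change -1.91 ± 0.38, adjusted p = 0.0689, or 0.0095 in the fit over 10 libraries). Its paralog Eif5a2 was far lower in level, at 2.36, 1.12 and 1.12 FPKM in doxycycline KrasT tumours and 1.52, 0.348 and 1.41 FPKM in untreated ones, and was not called.

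The eEF1 genes included both the lowest and the highest log2 change of the factors in KrasT. Eef1e1, also called AIMP3, sits in the complex of aminoacyl-tRNA synthetases. It had 10.2, 14.5 and 5.60 FPKM in doxycycline KrasT tumours and 71.0, 57.0 and 47.2 FPKM in untreated ones. Every doxycycline library was far below every untreated one, the ratio of means was 0.173, and the log2 change was -2.48 ± 0.36 (adjusted p = 0.0122). In MycT it had 18.8 and 11.4 FPKM after doxycycline and 141 and 144 FPKM untreated, a ratio of means of 0.106 and a log2 change of -3.20 ± 0.37 (adjusted p = 0.0638, or 0.00503 in the fit over 10 libraries). Eef1e1 was also called lower under division by total FPKM in both tables, at -1.84 in KrasT and -2.00 in MycT (adjusted p = 0.0173 and 0.023).

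Eef1a1, the gene of the aminoacyl-tRNA carrier itself, was the most abundant member, with 46.8% to 51.6% of the factors' summed FPKM in doxycycline KrasT libraries and 51.3% to 54.8% in untreated ones. It had 4332, 5682 and 4518 FPKM in doxycycline KrasT tumours and 11969, 11878 and 12375 FPKM in untreated ones (log2 change -1.33 ± 0.29, adjusted p = 0.0278). In MycT both doxycycline libraries were at 3632 FPKM, against 16743 and 10274 FPKM in untreated ones (log2 change -1.85 ± 0.40, adjusted p = 0.0719, or 0.00888 in the fit over 10 libraries), although quantile normalization turned this to 0.20. Subunits of its exchange factor were also called in KrasT: Eef1b2 averaged 362 ± 107 FPKM in doxycycline tumours and 987 ± 259 FPKM in untreated ones (SD, n = 3 each, adjusted p = 0.031), and Eef1g averaged 445 ± 20.9 and 951 ± 149.6 FPKM (adjusted p = 0.0288). Eef1d, the remaining subunit, had 99.4, 132 and 141 FPKM in doxycycline KrasT tumours and 198, 169 and 140.1 FPKM in untreated ones, with the highest doxycycline library just above the lowest untreated one, and was not called (adjusted p = 0.263). In MycT Eef1b2 had 311 and 296 FPKM after doxycycline and 1328 and 1727 FPKM untreated.

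**Figure D3:**
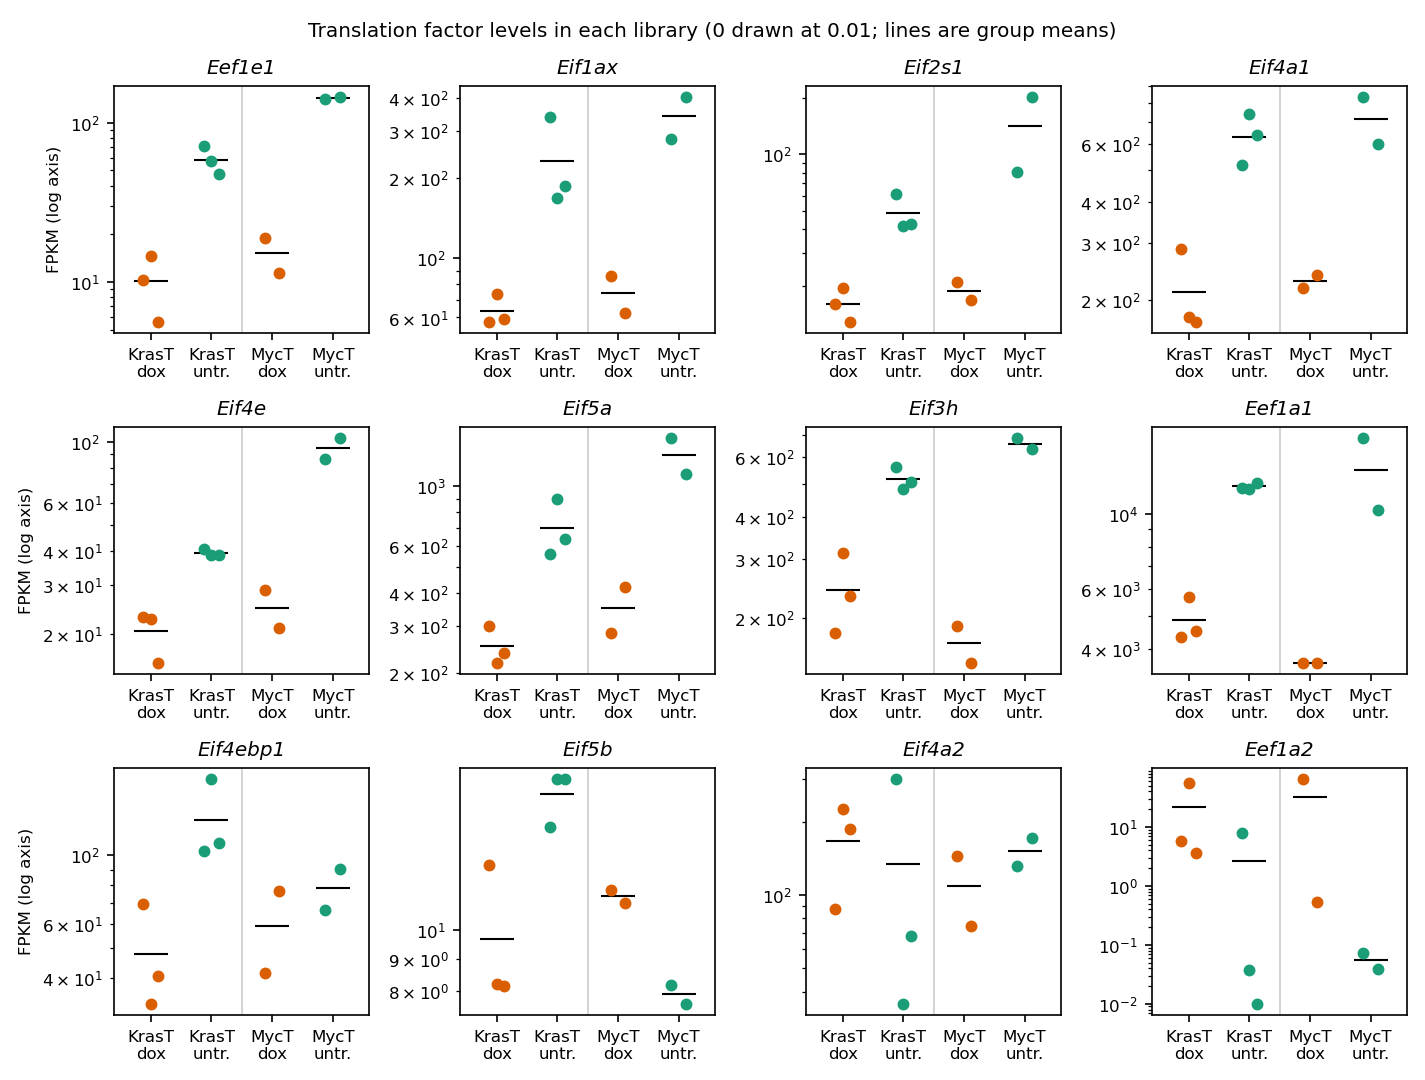
FPKM (log axis, each panel with its own range) of 12 translation factors in every library, grouped as KrasT doxycycline (dox), KrasT untreated (untr.), MycT doxycycline and MycT untreated. Points are libraries, horizontal lines are group means and a value of 0 is drawn at 0.01; in the upper 8 panels no doxycycline point reaches the untreated points of its table, while Eif5b lies in opposite order in the 2 tables and Eif4a2 overlaps.

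Eef1a2, the eEF1A gene of muscle, heart and neurons, held the highest log2 change in KrasT but was not called. It had 5.70, 56.3 and 3.54 FPKM in doxycycline KrasT tumours and 7.79, 0.0373 and 0 FPKM in untreated ones, overlapping groups with a log2 change of 2.53 ± 1.19 (adjusted p = 0.186). In MycT, where it did not pass the filter, it had 64.2 and 0.529 FPKM after doxycycline and 0.073 and 0.0394 FPKM untreated. The summed FPKM of 8 skeletal muscle markers was 82.4, 6491 and 322 in the same doxycycline KrasT libraries and 550 in untreated replicate 1, with 7.85 and 7.52 in the other untreated ones. In MycT it was 7716 and 22.9 after doxycycline and 7.43 and 20.3 untreated, and the libraries highest in Eef1a2 were those highest in the muscle sum. Their part in the Eef1a2 values was not tested.

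**Figure D4:**
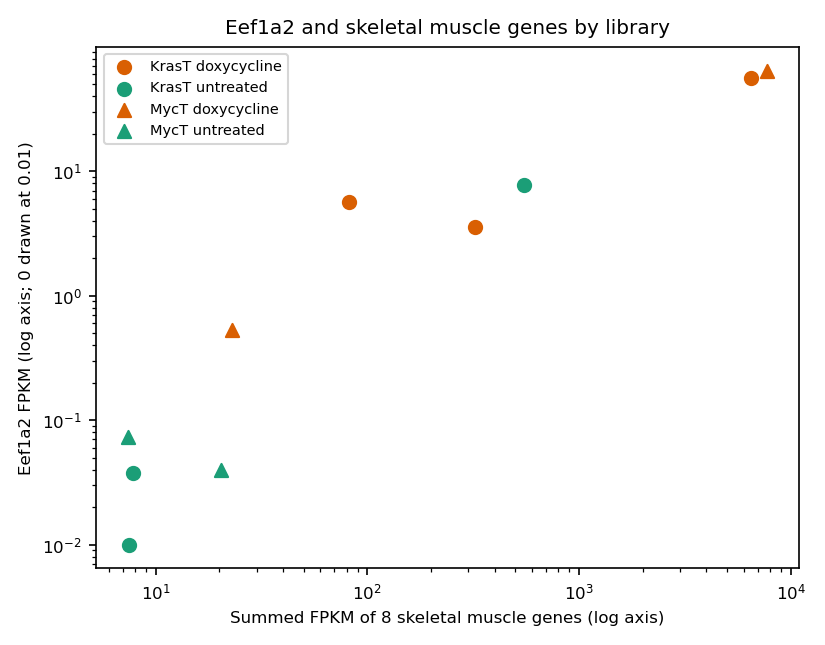
Eef1a2 FPKM (vertical, log axis, 0 drawn at 0.01) against the summed FPKM of 8 skeletal muscle genes (horizontal, log axis) in each of the 10 libraries, with circles for KrasT, triangles for MycT, orange for doxycycline and green for untreated. The 2 doxycycline libraries with 56.3 and 64.2 FPKM of Eef1a2 had muscle sums of 6491 and 7716.

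eEF2, the translocase and the target of eEF2 kinase, was not called. Eef2 had 734, 705 and 545 FPKM in doxycycline KrasT tumours and 642, 2035 and 1482 FPKM in untreated ones, with untreated replicate 1 inside the doxycycline range (log2 change -0.93 ± 0.45, adjusted p = 0.195). Without that library Eef2 was called at -1.40 (adjusted p = 0.0147). In MycT Eef2 had 319.5 and 524 FPKM after doxycycline and 1057 and 509 FPKM untreated, with the doxycycline and untreated ranges crossing.

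The remaining factors, none of them called in the KrasT table, complete the family. They are the eIF3 subunits Eif3f, Eif3k and Eif3l, the eIF2B subunits Eif2b2 and Eif2b4, Eif4h, Eif1ad, Eif2a and Eif2d, which can bring tRNA to the ribosome without the eIF2 complex, and Eif4enif1, which shuttles eIF4E into the nucleus. Their log2 changes in KrasT lay between -1.01 (Eif2b2) and 0.07 (Eif2b4), and in MycT between -1.79 (Eif2a) and -0.19 (Eif3f). Eif2a had 19.2, 28.1 and 20.8 FPKM in doxycycline KrasT tumours and 39.5, 30.9 and 47.8 FPKM in untreated ones, and 22.8 and 19.3 FPKM in doxycycline MycT tumours and 69.6 and 80.6 FPKM in untreated ones. Its groups were apart in both models, and it was called in the fit over 10 libraries in MycT (adjusted p = 0.00805).

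Set side by side, the factors stood in a similar order in the 2 models. Of 55 factors tested in both tables, 47 were below 0 in both, 2 above 0 in both and 6 of opposite sign, where 34.6%, 30.8% and 34.5% of the 12073 genes tested in both were. Of the factors 34 were lower without overlap in both, against 13.7% of those genes. In 39 the log2 change was lower in MycT than in KrasT, against 50.3%. Spearman's rho between the changes was 0.74 over the 55 factors and 0.43 over 12073 genes, a description only, since the genes of a table share its libraries and their scaling. The test of the difference between the changes, KrasT minus MycT, called 0 of 55 factors by limma, beside 0.0414% of all genes called higher and 0.199% lower. At an unadjusted p under 0.05 it gave 4 factors, Eif5b, Eif3i, Eif2a and Eif4e, where 19.9% of all genes passed. For Eif4e the difference was 0.97 ± 0.38 (SE, adjusted p = 0.205). Eif3i had 112, 159 and 151 FPKM in doxycycline KrasT tumours and 352, 352 and 298 FPKM in untreated ones, and 125 and 125 FPKM in doxycycline MycT tumours and 565 and 664 FPKM in untreated ones (difference 1.04 ± 0.35, adjusted p = 0.159). With these group sizes, a miss does not show that the models respond alike.

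**Figure D5:**
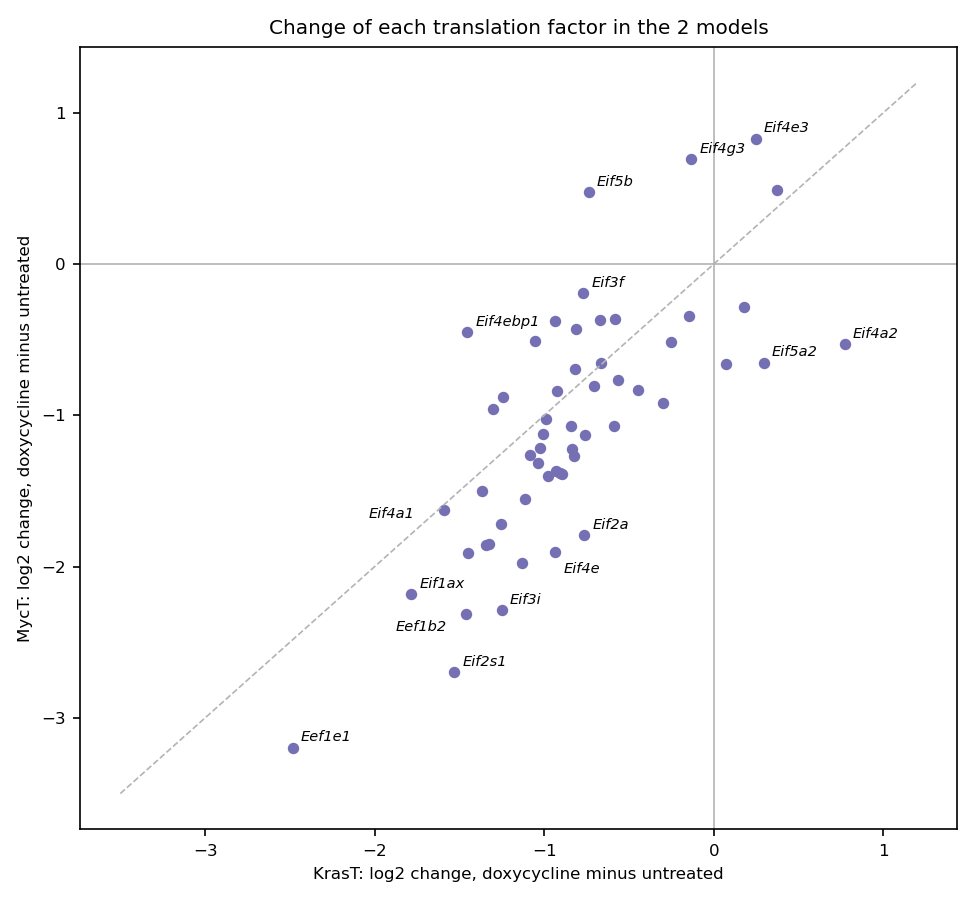
Log2 change of FPKM + 1, doxycycline minus untreated, of 55 translation factors in KrasT (horizontal) and MycT tumours (vertical); the dashed line marks equal change. Of the points, 47 lie in the lower left, 39 lie below the dashed line, and Eif5b lies left of 0 and above 0.

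The promoter hexamer was found among called and other factors. Of 16 factors called lower in KrasT with a RefSeq promoter, 3 held CACGTG (Eif4a1, Eif4e and Eif5a), and of 28 not called 7 did. In the MycT calls of the fit over 10 libraries 4 of 20 called and 6 of 24 others held it. Eef1e1, whose promoter is printed above, holds none in that window.

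Genes that act on these factors were read from lists of other pathway members. Of the 5 kinases of eIF2 alpha and eEF2, 0 were called in either table by limma, in the table's own fit or in the fit over 10 libraries, with a median log2 change of -0.04 in KrasT and 0.39 in MycT. At an unadjusted p under 0.05 there were also 0 in either table. The smallest p in KrasT was that of Eef2k, which had 10.1, 5.69 and 7.34 FPKM in doxycycline tumours and 4.42, 5.74 and 3.82 FPKM in untreated ones (adjusted p = 0.206). Of 17 genes of the TOR arm and of cap-binding control, 0 were called in either table. In KrasT 8.25% of all genes were called lower and 8.46% higher. The MycT table's own fit called 0.0312% and 0.00779%, so few calls could be made there for either list. At an unadjusted p under 0.05, 4 of the 17 were lower and 1 higher in KrasT, and 2 lower and 1 higher in MycT. Of all genes, 18.7% in KrasT and 17.6% in MycT were lower at that threshold. The fit over 10 libraries added Pabpc1, the poly(A)-binding protein, as lower in KrasT (adjusted p = 0.0456). Of 7 genes of release and recycling, 2 fell in KrasT, where 8.25% of all genes were called lower. These were Denr, a factor of re-initiation, at -1.15 ± 0.21 (adjusted p = 0.0184), and Abce1, the ribosome recycling ATPase, at -0.97 ± 0.25 (adjusted p = 0.0427). In MycT the fit over 10 libraries called 3 of the 7 lower, beside 12.3% of all genes: Abce1 (adjusted p = 0.0155), the release factor Gspt1 (0.017) and Denr (0.0303).

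Of 4 partners of eEF1, 2 fell in KrasT, where 8.25% of all genes were called lower. One was Tpt1, the translationally controlled tumour protein, at -1.39 ± 0.32 (adjusted p = 0.0311). The other was Aimp2, a scaffold of the synthetase complex that also holds Eef1e1, at -1.14 ± 0.29 (adjusted p = 0.0407). Aimp2 had 19.7, 22.8 and 21.7 FPKM in doxycycline KrasT tumours and 59.2, 57.5 and 33.1 FPKM in untreated ones, and in MycT 32.6 and 31.2 FPKM after doxycycline and 119 and 139 FPKM untreated. Of the genes of hypusine synthesis, the modification on eIF5A, 0 of 4 tested were called in KrasT (1 lower at an unadjusted p under 0.05). In MycT, where the fit over 10 libraries called 12.3% of all genes lower, it called 3 of 4 lower: Dhps, Dohh and Odc1. Among them Dhps, the enzyme of the first step, had 14.8 and 20.1 FPKM after doxycycline and 79.0 and 92.1 FPKM untreated in MycT (log2 change -2.24 ± 0.34, adjusted p = 0.00999 in that fit), and it had 16.1, 18.0 and 17.6 FPKM in doxycycline KrasT tumours and 45.0, 22.2 and 17.0 FPKM in untreated ones. Of 9 mitochondrial translation factors, 0 were called in KrasT (1 lower at an unadjusted p under 0.05), with a median log2 change of -0.06. In MycT 3 were called lower in the fit over 10 libraries, beside 12.3% of all genes, with a median of -1.11. These lists were not tested as sets for a difference between the models. Gene by gene, the limma interaction did not call Dhps, Dohh or Odc1, at differences of 1.69, 1.17 and 1.59 (adjusted p = 0.14, 0.187 and 0.137). It called no mitochondrial factor either, the lowest adjusted p being 0.185 for Mrrf.

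Many translation factors have processed pseudogenes, so some values are less certain than others. More than 20% of the 50-base words in the transcripts of 13 of the 58 factors also occurred in another annotated gene, while 26 factors shared none. The shared part was 91.8% for Eif3j2, 65.5% for Eif4ebp3, 65.3% for Eif4a1, 64.3% for Eef1g and 59.2% for Eef1a1, and at most 39.8% for Eif3j1, Eif3m, Eif2s3x, Eif1, Eif2s2, Eif3h, Eif4a3 and Eif3e. How the authors assigned such reads is unknown here.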

How the data were processed

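RNA-seq values were read from 2 gene tables, 1 per model, that the authors deposited as FPKM with 1 column per library. Per the labels' protocols, total RNA of frozen tumour tissue was made into TruSeq libraries. The submitters' processing notes name cutadapt, TopHat and the mm9 build. Which program and gene models gave the FPKM, and whether strand was used, are not stated in any source; FPKM without counts leave depth unknown, so no counting interval is given.

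Of 23951 rows per table, 27 whose symbols had become dates were left out. Animal numbers in the column names linked them to sample titles; these numbers pair no samples. One untreated MycT column, whose number matches no title, was used as a replicate without a number. Nothing says that tumours of a group came from separate donors, so p-values measure the spread between these samples.

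Changes on log2(FPKM + 1), a scale that understates changes of low genes, were tested two-sided by limma 3.58.1 under R 4.3.3 with a trended eBayes step. P-values were adjusted by Benjamini-Hochberg over all genes kept in a table, and genes were called under 0.05. The models were compared by the interaction term of 1 fit over 10 libraries on 12073 genes kept in both tables. Exact permutation cannot go below p = 0.1 with 3 against 3 or 0.333 with 2 against 2. The steps were tested on simulated data.

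Named were the called factors with the 10 largest changes per direction, a set chosen by role, those failing the filter, and up to 2 genes of each pathway list; exceptions are stated. The members and lists were chosen with earlier results of these data known. Promoters came from RefSeq tables of GRCm38.p6, and shared words of 50 bases from annotated mouse transcripts, a build other than the authors'. Alternatives were a pseudocount of 0.1, 2 other filters, 3 scalings, 2 forms of eBayes, the joint fit and leaving out each library. Plots were made by matplotlib 3.10.9 (Python 3.11.15).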

Additional observations from a re-analysis of the deposited data

Results flagged for a closer look

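Eif5b, the factor that joins the ribosomal subunits, is listed because every doxycycline KrasT tumour was below every untreated one while both doxycycline MycT tumours were above both untreated ones. The difference of the log2 changes, KrasT minus MycT, was -1.21 ± 0.38 (SE, limma interaction, unadjusted p = 0.0114, adjusted p = 0.137 over 12073 genes), so a difference between the models was not shown. Neither model's own change was called, and 19.9% of all genes had an unadjusted p under 0.05 in this test. Groups that were apart and in opposite order in the 2 tables occurred in 4.4% of all genes tested in both. No group had enough libraries for a test of single outlying libraries.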

How the results depend on the processing

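The number of KrasT factors called lower was 26 as deposited and 14 under median-ratio scaling. It was 3 under quantile normalization and 2 under division by total FPKM, which was added after seeing the data. As shares of the factors tested these were 46.4%, 25%, 5.36% and 3.57%. Of all genes tested, 8.25%, 5.52%, 3.87% and 1.83% were called lower in the same order. Leaving out 1 library gave 0 to 38 called lower and 0 to 2 called higher. Their median log2 change, -0.90, was -0.42 under quantile normalization and -0.21 under division by total FPKM. In MycT 0 were called in the table, against 26 in the fit over 10 libraries, 3 lower and 4 higher under division by total FPKM, and 0 to 8 lower when 1 library was left out. The MycT median of -1.07 was -0.54 under quantile normalization, 0.14 under division by total FPKM, a reversal, and -1.20 to -1.01 when 1 library was left out. The difference between models gave 0 called factors in every alternative. The causes were not tested. No paired analysis was possible because each tumour has its own animal number and the groups compared share none.

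Signs of single factors were followed only for those named by role or call, so the lists below are not complete. Over all tested factors, division by total FPKM left 39 of 56 below 0 in KrasT and 22 of 55 in MycT. Quantile normalization left 45 and 42, against 49 and 51 as deposited. Among the followed factors, division by total FPKM reversed the sign in KrasT for Eef1d (0.26), Eif3a (0.024), Eif4b (0.14), Eif4ebp2 (0.42), Eif4g1 (0.017) and Eif4g3 (0.54). In MycT it did so for Eef1d (0.40), Eef2 (0.40), Eif1 (0.86), Eif2s3x (0.52), Eif3a (0.57), Eif3b (0.21), Eif3c (0.79), Eif4a2 (0.70), Eif4a3 (0.00396), Eif4b (0.47), Eif4ebp1 (0.78), Eif4ebp2 (0.66), Eif4g1 (0.84), Eif4g2 (0.73), Eif5 (0.014), Eif5a2 (0.067) and Eif6 (0.35). Quantile normalization reversed Eef1d (0.17), Eif4b (0.022), Eif4g3 (0.063) and Eif5a2 (-0.25) in KrasT, and Eef1a1 (0.20), Eif1 (0.38), Eif3c (0.0027), Eif4a2 (0.088), Eif4ebp1 (0.054) and Eif4g2 (0.061) in MycT. Leaving out 1 library gave ranges that crossed 0 for 3 factors in KrasT, Eif2s3y (-1.84 to 0.13), Eif4ebp2 (-1.05 to 0.16) and Eif4g3 (-0.35 to 0.0056), and for Eif3c in MycT (-0.87 to 0.011).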
